A study of Mus musculus with 16 samples.

Results

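Distal stomach fibroblasts were set against proximal stomach fibroblasts of the mouse embryo, with the regions paired by embryonic day. The libraries were taken by their labels: 3 libraries of distal fibroblasts and 3 of proximal fibroblasts, 1 a region on embryonic days E13.5, E15.5 and then E17.5, out of 16 libraries in the series. All embryos carried the strain Sox2-EGFP; Gata4-td Tomato, whose reporters follow *Sox2* and *Gata4*, on a mixed background of C57BL/6 and 129×1/Sv. The paper describes both reporters as knock-in alleles of these genes. No group was treated or carried a conditional deletion. The fibroblasts were stomach mesenchyme sorted for surface PDGFRα in order to look for FGF ligands near the epithelium, and 8 libraries of E13.5 epithelium sorted by both reporters (3 *Gata4*hi, 2 *Sox2*mid*Gata4*mid, 3 *Sox2*hi) serve here as the comparison. PDGFRα-positive cells are a sort and not a single cell type, and nothing states how many embryos went into a library or where the cut between the regions lay. In bulk RNA, fewer cells of a type and less RNA per cell cannot be told apart.

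The mesenchyme of the gut patterns the epithelium above it. In the embryonic stomach it forms from the splanchnic mesoderm, carries a proximal-distal code of homeobox genes, and sends FGF, WNT, BMP and retinoid signals to the endoderm. The distal end forms the pylorus, whose mesenchyme in mouse and chick is marked by *Six2*, *Isl1*, *Nkx3-2*, *Nkx2-5* and *Gata3*, and the proximal end underlies the squamous forestomach of rodents. Hedgehog ligands made by the epithelium are received in this mesenchyme through *Ptch1* and read out by *Gli1*, *Hhip* and the forkhead genes.

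Levels are in FPKM (reads divided by transcript length and by the library's total, as Cufflinks gives them), with the days in the order E13.5, E15.5, E17.5. Differences are distal minus proximal on the scale log2(FPKM + 1), which understates the difference of low genes, and are given as the mean of the 3 days with its standard error (SE). The 12900 genes that averaged 1 FPKM or more in these 6 columns were tested with limma, with the day as a factor. Each day has 1 library a region, so the spread is that between days and a p-value measures only how alike the 3 pairs are.

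The libraries fit their labels as mesenchyme. *Pdgfra*, the gene of the sort, was listed at 217, 152 and 215 FPKM in distal and 166, 139 and 160.1 FPKM in proximal fibroblasts. The summed level of 20 epithelial markers, the reporter *EGFP* among them, was 7.29 to 21.5 FPKM in distal and 6.29 to 15.7 FPKM in proximal fibroblasts. In the epithelium this sum was 1941 to 2896 FPKM. *Krt14* reached at most 0.0547 FPKM in the fibroblasts. Smooth muscle markers (18 genes, 16 tested) summed to 1280.0 to 1915 FPKM in distal and 1710 to 2606 FPKM in proximal fibroblasts. Red cell transcripts summed to at most 23.0 FPKM, in the proximal library of E13.5. Y-linked genes were present in both E13.5 libraries (*Ddx3y* 10.6 FPKM in distal and 12.7 in proximal) and at or near 0 in the other 4, where *Xist* stood at 63.1 and 76.7 FPKM in distal and 50.9 and 49.0 FPKM in proximal fibroblasts. At E13.5 *Xist* was present beside the Y-linked genes, at 8.59 FPKM in distal and 7.38 FPKM in proximal fibroblasts. The pattern of these sex-linked genes thus matched within a day and differed between days. Same-day libraries of the regions correlated at 0.940 to 0.948 across genes and libraries of 1 region on different days at 0.844 to 0.922. Read counts are not given. By the steps between low FPKM values, the other libraries had 0.4995 (proximal, E13.5) to 0.754 (distal, E17.5) times the depth of the distal library of E13.5.

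No gene passed limma's test at an adjusted p under 0.05 in either direction (0 of 12900, 0%), and the lowest adjusted p was 0.190. At an unadjusted p under 0.05 there were 1287 genes (9.98%), of which 604 were higher in distal and 683 higher in proximal fibroblasts. Only 2 residual degrees of freedom stand behind each gene of that fit. When the spread was shared with the 8 epithelial libraries in 1 model of 13666 genes, 108 genes were higher in distal (0.79%) and 82 higher in proximal fibroblasts (0.6%) at an adjusted p under 0.05. The split depends on the scale, with 122 and 60 genes after rescaling to TPM, and on the E15.5 pair, without which 29 and 19 genes passed. That model assumes that the fibroblast pairs vary like epithelial replicates. Genes near 0 in the epithelium hardly vary there, so for them the SE and adjusted p of this model can be too low. *Fgf10*, at 0.0735 FPKM in *Gata4*hi and 0.0806 FPKM in *Sox2*hi cells, had an SE of 0.339 in it, against 0.459 in the paired fit. The adjusted p of the shared model is quoted from here on as the shared-spread adjusted p. The SE beside a regional difference stays that of the paired fit, so this SE and this p come from different models. In the paired fit no gene passed, including every gene named below. The regional differences themselves depended on the day: their correlation across genes was 0.202 between E13.5 and E15.5, 0.10 between E13.5 and E17.5 and 0.106 between E15.5 and E17.5.

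Without a test, 25 genes (0.194% of those tested) differed at least 2-fold on every day towards distal and 21 (0.163%) towards proximal fibroblasts. Of these, 17 and 19 are protein-coding. The largest protein-coding differences were those of the homeobox genes *Six2* and *Isl1* on the distal side and of *Anxa1* and *Hoxa7* on the proximal side. In the shared-spread model, 19 of the 24 distal genes it could test and 19 of the 21 proximal genes passed, beside 0.79% and 0.6% of all genes. These genes were chosen for their difference in the same libraries, so their count is largely fixed by the choice and supports nothing. On single days, 356, 353 and 490 genes were 2-fold higher in distal fibroblasts (2.76%, 2.74% and 3.8%) and 460, 349 and 330 were 2-fold higher in proximal fibroblasts (3.57%, 2.71% and 2.56%).

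*Six2*, *Isl1* and *Anxa1* are the genes given as markers of the regions. The 250 bases before the RefSeq start of each of these markers are shown (build GRCm38.p6, all on the minus strand, 5′ to 3′). Capitals mark matches on either strand to TATAAA (the core promoter element), to CCAAT (the box named for these letters), to GGGCGG (the GC box), to AGATAA (the core read by GATA factors) or to TAATTA (the homeodomain core).
*Six2*, chr17:85688255-85688504: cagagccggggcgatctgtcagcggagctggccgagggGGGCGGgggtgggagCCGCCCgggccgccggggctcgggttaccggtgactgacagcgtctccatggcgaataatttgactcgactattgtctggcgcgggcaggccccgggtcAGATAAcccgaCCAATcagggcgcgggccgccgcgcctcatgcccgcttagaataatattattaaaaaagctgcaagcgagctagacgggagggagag
*Isl1*, chr13:116309689-116309938: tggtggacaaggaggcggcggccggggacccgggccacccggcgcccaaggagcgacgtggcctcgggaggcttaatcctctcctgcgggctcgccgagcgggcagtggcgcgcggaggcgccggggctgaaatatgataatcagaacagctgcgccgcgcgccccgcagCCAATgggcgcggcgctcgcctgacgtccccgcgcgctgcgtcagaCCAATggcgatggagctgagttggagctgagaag
*Anxa1*, chr19:20390672-20390921: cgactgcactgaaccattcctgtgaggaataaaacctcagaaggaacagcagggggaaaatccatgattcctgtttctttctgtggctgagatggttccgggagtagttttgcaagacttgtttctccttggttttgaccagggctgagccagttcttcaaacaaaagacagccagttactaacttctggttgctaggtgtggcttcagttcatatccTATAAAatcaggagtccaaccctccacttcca
The *Six2* window held 2 GC boxes, a match to AGATAA and a CCAAT box. The *Isl1* window held 2 CCAAT boxes and the *Anxa1* window a TATAAA match that begins 32 bases before the start. RefSeq promoters matched 13 of the 25 distal and 10 of the 21 proximal genes. TATAAA was in 1 of these 13 and 2 of these 10 genes, against 14.3% of 27025 genes with a promoter. CCAAT was in 6 and 1, against 37.5%, and GGGCGG in 9 and 5, against 35.4%. AGATAA was in 1 and 3, against 11.4%, and TAATTA in 0 and 0, against 5.65%. No match overlapped another in the windows shown, and a match is only a description of letters.

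*Six2*, a homeobox factor of the pyloric mesenchyme (chromosome 17, 85684277 to 85688274 of GRCm38), stood at 106, 78.4 and 31.0 FPKM in distal fibroblasts, against 2.15, 3.35 and 2.72 FPKM in proximal fibroblasts. The groups did not overlap, and the distal level was lower at each later day. The mean difference was 4.13 (SE 0.39, adjusted p = 0.190 from limma, shared-spread adjusted p = 0.000484). *Isl1*, a LIM-homeodomain factor needed for the pylorus in mouse (chromosome 13, 116298281 to 116309689), stood at 30.4, 29.6 and 22.7 FPKM in distal fibroblasts, against 0.614, 2.44 and 2.21 FPKM in proximal fibroblasts. Its distal values lay close together over the 3 days, and its difference was 3.44 (SE 0.30, adjusted p = 0.190, shared-spread adjusted p = 0.000502, limma). *Anxa1*, which encodes a phospholipid-binding annexin (chromosome 19, 20373428 to 20390944), ran the other way, at 0.863, 0.780 and 11.1 FPKM in distal fibroblasts, against 14.2, 13.7 and 59.4 FPKM in proximal fibroblasts. Both regions had their highest *Anxa1* value at E17.5, and the groups overlapped at no point. The difference was −2.80 (SE 0.19, adjusted p = 0.190, shared-spread adjusted p = 0.000151, limma).

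**Figure D1:**
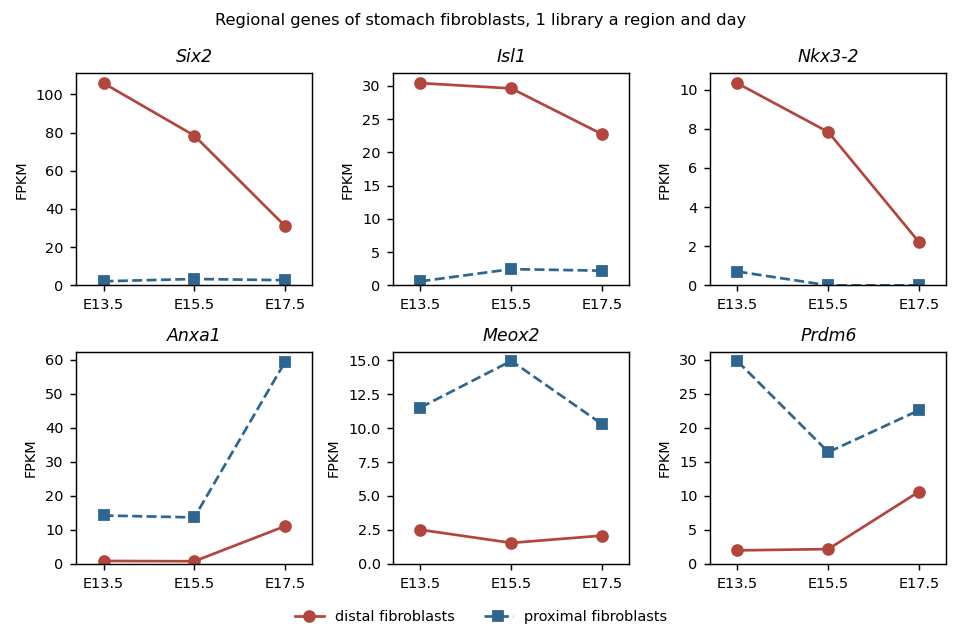
FPKM (vertical axis, linear) of 6 regional genes by embryonic day (horizontal axis) in distal fibroblasts (circles, solid line) and proximal fibroblasts (squares, dashed line), 1 library a point. *Six2*, *Isl1* and *Nkx3-2* lie higher in the distal libraries of every day, and *Anxa1*, *Meox2* and *Prdm6* higher in the proximal ones.

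Other transcription factors of the pyloric region stood on the distal side as well. *Nkx3-2*, a homeobox gene of antral and splenic mesenchyme, was listed at 10.3, 7.83 and 2.204 FPKM in distal fibroblasts, against 0.707, 0 and 0 FPKM in proximal fibroblasts. It was at 0 in the 2 later proximal libraries, and its difference was 2.52 (SE 0.35, shared-spread adjusted p = 0.00194). *Nkx2-5*, a homeobox gene of heart and pylorus, had 8.45, 4.15 and 0.361 FPKM in distal and 1.22, 0 and 0 FPKM in proximal fibroblasts. By E17.5 it was close to 0 on both sides, and its difference was 1.63 (SE 0.46, shared-spread adjusted p = 0.0443). *Gata3*, a zinc-finger factor of the pyloric sphincter in mouse, had 5.70, 3.22 and 1.58 FPKM in distal and 1.27, 0.0783 and 0 FPKM in proximal fibroblasts. Every distal value lay above every proximal one, with a difference of 1.63 (SE 0.26, shared-spread adjusted p = 0.0251). *Barx1*, the homeobox gene that marks stomach mesenchyme, was high in both regions, at 375, 219 and 117 FPKM in distal fibroblasts, against 169.7, 114.6 and 76.6 FPKM in proximal fibroblasts. On each day it was higher in distal fibroblasts, while the groups overlapped across days and each region had its lowest value at E17.5, and the difference was 0.89 (SE 0.13, shared-spread adjusted p = 0.0319). *Hand2*, a basic helix-loop-helix factor, stood at 74.6, 29.5 and 10.5 FPKM in distal and 36.2, 8.41 and 4.92 FPKM in proximal fibroblasts, and *Uph*, the long RNA transcribed divergently from it, at 35.1, 21.1 and 7.75 FPKM in distal and 10.5, 3.67 and 1.76 FPKM in proximal fibroblasts. Both were higher in distal fibroblasts on each day (*Hand2* 1.23, SE 0.18, shared-spread adjusted p = 0.0184, *Uph* 1.85, SE 0.17, shared-spread adjusted p = 0.000666). Exons of *Uph* overlap those of *Hand2* on the other strand, and the strand setting of the counting is not stated, so reads of these genes may not be told apart. The same limit touches *Fgf10*, *Fgf2*, *Gata3*, *Tspan12*, *Sfrp2*, *Tgfb3*, *Wnt11*, *Fst*, *Hhip*, *Notch3*, *Abcc9*, *Ptchd1* and *Adck5*, whose exons overlap a gene on the other strand.

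The proximal side had its own homeobox and helix-loop-helix genes. *Meox2*, a homeobox gene of limb and somite mesenchyme, stood at 2.51, 1.55 and 2.08 FPKM in distal fibroblasts, against 11.51, 14.9 and 10.3 FPKM in proximal fibroblasts. Its groups did not overlap, with a difference of −2.12 (SE 0.22, shared-spread adjusted p = 0.000634). *Prrx1*, a homeobox gene of limb and craniofacial mesenchyme, had 0.596, 0.591 and 6.37 FPKM in distal and 7.87, 5.09 and 13.1 FPKM in proximal fibroblasts. It was higher in proximal fibroblasts on every day but overlapped across days, with its highest values at E17.5 (difference −1.78, SE 0.33, shared-spread adjusted p = 0.0108). The related factors *Twist1* and *Twist2* stood in opposite order. *Twist1* was listed at 14.1, 21.4 and 13.3 FPKM in distal and 29.1, 59.3 and 32.1 FPKM in proximal fibroblasts and *Twist2* at 21.1, 22.9 and 20.7 FPKM in distal and 8.47, 9.25 and 11.7 FPKM in proximal fibroblasts. Neither gene's groups overlapped, and the differences were −1.21 (SE 0.12, shared-spread adjusted p = 0.0246) for *Twist1* and 1.07 (SE 0.14, shared-spread adjusted p = 0.00893) for *Twist2*. *Prdm6*, a chromatin factor of smooth muscle, had 1.99, 2.18 and 10.6 FPKM in distal and 29.8, 16.4 and 22.6 FPKM in proximal fibroblasts, and its difference narrowed by E17.5 (mean −2.28, SE 0.46, shared-spread adjusted p = 0.0141). Of 78 listed regional transcription factors 40 were tested, with every distal library above every proximal library for 7 and below for 5, beside 2.75% and 2.5% of all genes tested. Their median difference was 0.16, beside 0.0031 over all genes. By the shared-spread adjusted p, 10 were called higher in distal and 4 higher in proximal fibroblasts, beside 0.79% and 0.6% over all genes. This list was chosen knowing such genes to differ in these data.

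Beside these factors and the signalling genes described further on, the 12 distal genes with the largest 2-fold differences, predicted and unnamed transcripts left out, held *Colec10*, *Tspan12*, *Moxd1* and *Snora24*. *Colec10*, a secreted collectin, had 30.2, 33.4 and 22.7 FPKM in distal and 6.81, 8.10 and 2.21 FPKM in proximal fibroblasts. Its groups did not overlap, with a difference of 2.27 (SE 0.23, shared-spread adjusted p = 0.000575). *Tspan12*, a tetraspanin that binds frizzled-4, had 36.1, 24.5 and 8.01 FPKM in distal and 6.97, 4.21 and 2.35 FPKM in proximal fibroblasts, and *Moxd1*, a copper monooxygenase, 5.02, 6.70 and 3.04 FPKM in distal and 0.990, 0.704 and 0.199 FPKM in proximal fibroblasts. In each case the lowest distal library was above the highest proximal one (differences 1.98, SE 0.21, shared-spread adjusted p = 0.000502 and 1.84, SE 0.23, shared-spread adjusted p = 0.00238). *Snora24*, a small nucleolar RNA inside *Snhg8*, had 96.0, 86.5 and 48.9 FPKM in distal fibroblasts, against 18.7 and 7.51 FPKM and a value near 0 in proximal fibroblasts, and was not called with the shared spread (adjusted p = 0.332). The libraries were selected for polyA RNA, and 4 of the 25 distal genes are such small RNAs, with 2.47% of all genes tested. The others of the 25 were *Gata3*, *Kcnj8*, *Fndc3c1*, *Hs3st3b1*, *Tgfb3*, *Ptchd1*, *Astn2* and 6 predicted or unnamed transcripts, of which 5 had mean differences (3.05 to 4.20) above that of *Nkx3-2*.

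On the proximal side, *Hpse2*, a heparanase homologue without its enzyme activity, had 10.8, 4.96 and 0.958 FPKM in distal and 33.5, 27.2 and 10.2 FPKM in proximal fibroblasts. *Cpz*, a carboxypeptidase with a frizzled-like domain, had 0.584, 1.57 and 11.3 FPKM in distal and 5.71, 11.3 and 46.2 FPKM in proximal fibroblasts. Both regions had their lowest *Hpse2* and their highest *Cpz* value at E17.5, and both genes were lower in distal fibroblasts on each day (−2.10, SE 0.22, shared-spread adjusted p = 0.000634 and −2.10, SE 0.13, shared-spread adjusted p = 0.00141). *Calml4*, a calmodulin-like protein, had 3.28, 9.82 and 19.7 FPKM in distal and 35.3, 35.2 and 44.9 FPKM in proximal fibroblasts, and *Eif4ebp3*, a repressor of cap-dependent translation, had 1.05, 0.00960 and 0.934 FPKM in distal and 9.21, 4.77 and 5.07 FPKM in proximal fibroblasts. Their differences were −1.99 (SE 0.39, shared-spread adjusted p = 0.0443) and −2.16 (SE 0.25, shared-spread adjusted p = 0.00827), and exons of *Eif4ebp3* overlap another transcript on the same strand. Further genes on this side included *S100a6*, *Cpa6*, *Fmo1*, *Fhdc1*, *Adck5* and 2 predicted or unnamed transcripts. *S100a6*, a calcium-binding protein, stood at 29.1, 101 and 281 FPKM in distal and 70.0, 410.3 and 852 FPKM in proximal fibroblasts (difference −1.61, SE 0.16, shared-spread adjusted p = 0.00226).

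**Figure D2:**
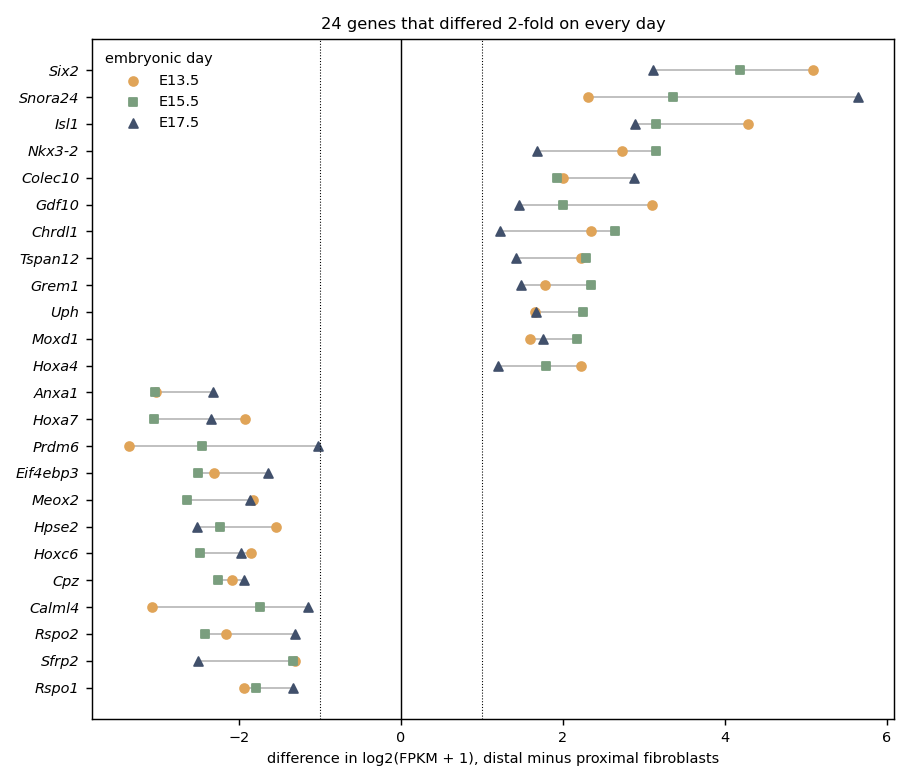
Difference in log2(FPKM + 1), distal minus proximal fibroblasts (horizontal axis), for the 12 largest genes each way among those that differed 2-fold on every day, predicted and unnamed transcripts left out (vertical axis); circles, squares and triangles are E13.5, E15.5 and E17.5, and dotted lines mark 2-fold. The *Six2* points run between 3.11 and 5.09, and *Prdm6* at E17.5 (−1.02) lies at the 2-fold line.

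Hox genes are laid out along 4 clusters, with higher paralogue numbers expressed further back in the body. In the HoxA cluster, *Hoxa2* (20.8, 21.5 and 17.47 FPKM in distal and 9.07, 10.7 and 8.97 FPKM in proximal fibroblasts), *Hoxa3* (15.48, 22.1 and 22.3 FPKM in distal and 11.4, 11.3 and 9.39 FPKM in proximal fibroblasts), *Hoxa4* (35.2, 18.7 and 11.3 FPKM in distal and 6.76, 4.68 and 4.35 FPKM in proximal fibroblasts) and *Hoxa5* (54.6, 37.1 and 37.6 FPKM in distal and 22.2, 20.4 and 25.2 FPKM in proximal fibroblasts) were all higher in distal fibroblasts. In none of these did the groups overlap, and the differences were 0.98 (SE 0.11, shared-spread adjusted p = 0.0221), 0.83 (SE 0.18, adjusted p = 0.0397), 1.74 (SE 0.22, adjusted p = 0.00141) and 0.89 (SE 0.16, adjusted p = 0.0292). *Hoxa6* had 6.20, 3.53 and 4.97 FPKM in distal and 7.71, 5.05 and 5.11 FPKM in proximal fibroblasts (difference −0.24). *Hoxa7* stood at 12.2, 4.72 and 4.52 FPKM in distal fibroblasts, against 49.4, 46.6 and 27.0 FPKM in proximal fibroblasts. Its groups were far apart, with a difference of −2.44 (SE 0.24, shared-spread adjusted p = 0.000634), and *Hoxa9*, below the minimum for a test, was listed at 0.219, 0 and 0 FPKM in distal and 3.12, 1.73 and 0.515 FPKM in proximal fibroblasts. Exons of *Hoxa4* and *Hoxa7* overlap antisense genes.

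In the other clusters the genes below 0 on every day were *Hoxc4*, *Hoxc5*, *Hoxc6*, *Hoxb6*, *Hoxb7* and *Hoxb8*. *Hoxc4* had 13.8, 6.49 and 10.5 FPKM in distal and 15.0, 14.2 and 10.5 FPKM in proximal fibroblasts (difference −0.38), with nearly equal values at E17.5. *Hoxc6* had 0.238, 0.0319 and 0.404 FPKM in distal and 3.46, 4.75 and 4.51 FPKM in proximal fibroblasts, with a difference of −2.10 (SE 0.26, shared-spread adjusted p = 0.000634), and *Hoxc5* had 8.34, 1.80 and 4.70 FPKM in distal and 14.7, 7.10 and 10.6 FPKM in proximal fibroblasts. *Hoxb8* had 19.9, 4.26 and 1.14 FPKM in distal and 27.5, 14.6 and 12.2 FPKM in proximal fibroblasts. The differences of *Hoxb6*, *Hoxb7* and *Hoxb8* were −0.67 (SE 0.18, shared-spread adjusted p = 0.0707), −0.85 (SE 0.17, adjusted p = 0.0327) and −1.55 (SE 0.42, adjusted p = 0.0501). *Hoxb2*, *Hoxb3*, *Hoxb4* and *Hoxb5* had mean differences of 0.23, −0.17, 0.049 and −0.0048. *Hoxd8* had 0.572, 0.817 and 0.781 FPKM in distal and 0.419, 4.53 and 4.13 FPKM in proximal fibroblasts. Of 39 Hox genes, 18 were tested and 21 lay below the minimum, with every distal library above every proximal library for 4 and below for 2, beside 2.75% and 2.5% of all genes, and a median difference of −0.20.

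**Figure D3:**
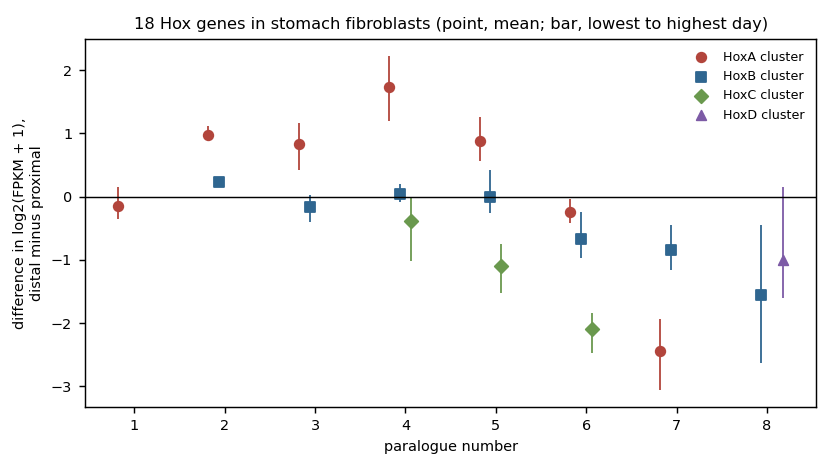
Difference in log2(FPKM + 1), distal minus proximal fibroblasts (vertical axis), against paralogue number (horizontal axis) for the 18 Hox genes tested; points are means of the 3 days and bars run from the lowest to the highest day, with a symbol and colour for each cluster. *Hoxa2* to *Hoxa5* and *Hoxb2* lie above 0 and *Hoxa6*, *Hoxa7*, *Hoxb6* to *Hoxb8* and *Hoxc4* to *Hoxc6* below 0 with their whole bars, that of *Hoxc4* reaching to just under 0.

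FGF ligands were the reason for the sort, and 8 of 22 reached the minimum for a test. None had groups without overlap. *Fgf10*, the mesenchymal ligand of epithelial *Fgfr2*, stood at 30.1, 16.4 and 4.68 FPKM in distal fibroblasts, against 2.53, 6.21 and 1.91 FPKM in proximal fibroblasts. The distal level was highest at E13.5 and lowest at E17.5, and the E17.5 distal value was below the E15.5 proximal one. Its difference was 1.79 (SE 0.46, adjusted p = 0.386 from limma, shared-spread adjusted p = 0.0391). *Fgf7*, the other ligand of this receptor type in mesenchyme, was listed at 0, 2.57 and 14.5 FPKM in distal fibroblasts, against 5.59, 6.06 and 25.5 FPKM in proximal fibroblasts. It was highest at E17.5 in both regions and lower in distal fibroblasts on each day, with a difference of −1.49 (SE 0.42, shared-spread adjusted p = 0.0543). *Fgf9*, known as an epithelial and mesothelial ligand, had 0.179, 0.574 and 10.0 FPKM in distal and 0.426, 0.119 and 0.328 FPKM in proximal fibroblasts, so that only the distal library of E17.5 stood out (difference 1.09, SE 0.71, shared-spread adjusted p = 0.350). *Fgf2* had 4.81, 19.04 and 20.0 FPKM in distal and 3.91, 26.0 and 20.98 FPKM in proximal fibroblasts, *Fgf13* 14.7, 8.57 and 10.6 FPKM in distal and 18.5, 14.2 and 9.37 FPKM in proximal fibroblasts and *Fgf18* 0.0755, 0.111 and 2.74 FPKM in distal and 0.679, 0.158 and 4.46 FPKM in proximal fibroblasts. *Fgf11* and *Fgf12* are relatives that stay inside the cell, as *Fgf13* does. *Fgf11* had 1.77, 2.57 and 1.81 FPKM in distal and 3.26, 3.39 and 1.499 FPKM in proximal fibroblasts, and *Fgf12* had 1.71, 1.20 and 1.11 FPKM in distal and 3.29, 2.71 and 1.36 FPKM in proximal fibroblasts. These 5 had differences between −0.53 and −0.084. The median over the 8 genes was −0.26.

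WNT genes had medians on the proximal side. R-spondins amplify WNT signals at LGR receptors, and *Rspo2* had 3.13, 6.04 and 5.20 FPKM in distal and 17.6, 36.7 and 14.3 FPKM in proximal fibroblasts, and *Rspo1* 4.88, 1.72 and 1.71 FPKM in distal and 21.5, 8.42 and 5.82 FPKM in proximal fibroblasts. In both, every proximal library was above every distal one (differences −1.96, SE 0.25, shared-spread adjusted p = 0.00160 and −1.69, SE 0.18, shared-spread adjusted p = 0.00134). *Rspo1* is also a mesothelial marker. The 13 mesothelial markers, *Rspo1* among them, summed to 90.4, 46.8 and 138 FPKM in distal and 59.1, 119 and 183 FPKM in proximal fibroblasts. Of this sum, *Aldh1a2* alone gave 73.8, 42.9 and 132 FPKM in distal and 31.0, 107 and 174 FPKM in proximal fibroblasts. *Msln* was at 0 in all 6 libraries and *Upk3b* at most 0.134 FPKM. *Wt1* had 1.61, 0.120 and 0 FPKM in distal and 2.23, 1.12 and 0.168 FPKM in proximal fibroblasts. *Bnc1* ran the other way, at 5.66, 0.178 and 0 FPKM in distal and 1.74, 0.0560 and 0 FPKM in proximal fibroblasts. Whether mesothelial cells had a part in the *Rspo1* difference was not tested. The secreted frizzled-related proteins, which bind WNT ligands, stood apart: *Sfrp2* had 39.7, 37.0 and 41.7 FPKM in distal and 100.1, 94.6 and 243 FPKM in proximal fibroblasts and *Sfrp1* 243, 201 and 154 FPKM in distal and 74.1, 73.7 and 118 FPKM in proximal fibroblasts. *Sfrp2* was lower and *Sfrp1* higher in every distal library (−1.72, SE 0.27, shared-spread adjusted p = 0.0190 and 1.17, SE 0.28, shared-spread adjusted p = 0.0316). Among the ligands, *Wnt11* had 5.22, 3.45 and 4.94 FPKM in distal and 10.2, 9.78 and 18.2 FPKM in proximal fibroblasts and *Wnt2* 0.0581, 0.621 and 0.736 FPKM in distal and 0.842, 5.70 and 3.25 FPKM in proximal fibroblasts. Neither overlapped, with differences of −1.28 (SE 0.20, shared-spread adjusted p = 0.0177) and −1.38 (SE 0.33, outside the shared-spread model). Of 9 tested WNT ligands, 0 had every distal library above every proximal one and 2 had every one below, beside 2.75% and 2.5% of all genes, with a median of −0.78. Among 20 tested targets and modulators these counts were 2 and 4, beside the same shares of all genes (2.75% and 2.5%), with a median of −0.45.

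Some BMP-related genes stood on the distal side. *Gdf10*, a TGF-beta family ligand close to BMP3, had 11.8, 4.01 and 3.03 FPKM in distal and 0.488, 0.248 and 0.466 FPKM in proximal fibroblasts. *Chrdl1*, a chordin-like BMP antagonist, had 17.2, 15.6 and 15.9 FPKM in distal and 2.58, 1.65 and 6.26 FPKM in proximal fibroblasts, and *Grem1*, a gremlin antagonist, 2.85, 5.22 and 5.78 FPKM in distal and 0.121, 0.221 and 1.43 FPKM in proximal fibroblasts. The 3 genes had every distal library above every proximal one, with differences of 2.19 (SE 0.37, shared-spread adjusted p = 0.00649), 2.07 (SE 0.31, adjusted p = 0.0171) and 1.87 (SE 0.26, adjusted p = 0.00238). *Bmper* and *Fst*, also antagonists, were lower in distal fibroblasts on each day, *Fst* at 61.7, 9.01 and 2.67 FPKM in distal and 170.2, 26.6 and 3.64 FPKM in proximal fibroblasts and *Bmper* at 0.451, 0.404 and 0.804 FPKM in distal and 4.64, 1.87 and 0.887 FPKM in proximal fibroblasts. The difference of *Fst* was −1.08 (SE 0.26, shared-spread adjusted p = 0.0781). Of 26 tested BMP genes, 3 were above and 2 below without overlap (2.75% and 2.5% over all genes), and their median was 0.11. *Tgfb3*, a TGF-beta ligand, had 10.6, 9.60 and 30.8 FPKM in distal and 3.52, 3.70 and 11.2 FPKM in proximal fibroblasts (difference 1.31, SE 0.12, shared-spread adjusted p = 0.0153), and the other TGF-beta and activin genes tested lay between −0.42 and 0.68. In the Notch list, *Hey1*, *Heyl*, *Jag1* and *Notch3* had differences of 1.26, 0.89, 1.08 and 0.58 and shared-spread adjusted p-values of 0.0461, 0.0138, 0.0459 and 0.0275, with a median over 13 tested of 0.45. These 4 were the only ones called, beside 0.79% and 0.6% over all genes, and 1 was above and 0 below without overlap (2.75% and 2.5%). *Dll1* (0.87, shared-spread adjusted p = 0.301) was not called and was lower in the distal library of E13.5. *Notch3* is also 1 of the pericyte markers. *Igfbp2* and *Igfbp5* encode binding proteins of insulin-like growth factors. *Igfbp2* had 82.3, 13.4 and 19.1 FPKM in distal and 196, 37.8 and 38.1 FPKM in proximal fibroblasts, and *Igfbp5* had 102, 322 and 259 FPKM in distal and 251, 464 and 517 FPKM in proximal fibroblasts. Both were lower in distal fibroblasts on every day (−1.21, SE 0.13, shared-spread adjusted p = 0.000502 and −0.94, SE 0.16, shared-spread adjusted p = 0.0251). *Igfbp3* was higher in distal fibroblasts on the mean (0.70, SE 0.49, shared-spread adjusted p = 0.479). Of 13 tested insulin-like growth factor genes, 2 were above and 0 below without overlap, beside 2.75% and 2.5% of all genes. With the shared spread 1 was called higher in distal and 2 in proximal fibroblasts (0.79% and 0.6% over all genes). Their median was −0.050.

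Of 14 tested hedgehog genes 0 were called in either model, and the values of some targets differed between the regions in the E17.5 libraries. *Hhip*, a secreted inhibitor that hedgehog induces, stood at 16.6, 15.3 and 16.1 FPKM in distal fibroblasts, against 16.5, 8.05 and 0.208 FPKM in proximal fibroblasts. The regions were level at E13.5, and the proximal library of E17.5 was close to 0. *Ptch1*, the receptor and target, had 138, 227 and 214 FPKM in distal and 135.5, 262 and 73.2 FPKM in proximal fibroblasts, *Gli1* 27.4, 36.7 and 25.2 FPKM in distal and 24.6, 33.7 and 11.1 FPKM in proximal fibroblasts and *Foxl1* 15.8, 30.4 and 24.1 FPKM in distal and 17.3, 27.5 and 3.80 FPKM in proximal fibroblasts. In each of them the lowest of the 6 values was the proximal one of E17.5. Their mean differences were 1.56 (SE 0.76, shared-spread adjusted p = 0.230), 0.45 (SE 0.36, adjusted p = 0.517), 0.46 (SE 0.23, adjusted p = 0.317) and 0.80 (SE 0.53, adjusted p = 0.396), none of them called. *Cdon*, a co-receptor of hedgehog ligands, ran the other way at 24.6, 4.52 and 3.36 FPKM in distal and 27.9, 7.28 and 7.90 FPKM in proximal fibroblasts (difference −0.60, SE 0.19, shared-spread adjusted p = 0.0768). The medians over 14 tested hedgehog genes were 0.021, 0.12 and 0.48 at the 3 days, beside −0.044, −0.0017 and 0.05 over all genes. The WNT targets and modulators had medians of −0.12, −0.34 and −0.40. Among them, chosen after their values were seen, *Nkd1*, a feedback inhibitor, had 14.3, 11.6 and 24.3 FPKM in distal and 14.7, 25.5 and 102 FPKM in proximal fibroblasts, *Axin2* 9.22, 8.38 and 6.76 FPKM in distal and 11.51, 9.98 and 27.5 FPKM in proximal fibroblasts and *Sp5* 0.0628, 0.0695 and 1.40 FPKM in distal and 0.0314, 0.612 and 7.44 FPKM in proximal fibroblasts. In these 3 the proximal value of E17.5 was the highest of the 6 (mean differences −1.04, SE 0.39, shared-spread adjusted p = 0.139, −0.80, SE 0.37, adjusted p = 0.299 and −0.79, SE 0.45, adjusted p = 0.263). *Nkd1* already differed at E15.5. *Lef1*, a WNT target below the minimum for a test, had 0.665, 0.0279 and 3.22 FPKM in distal and 0, 0.277 and 1.23 FPKM in proximal fibroblasts. *Id1*, a BMP target, had 91.2, 81.8 and 62.9 FPKM in distal and 211, 71.3 and 13.2 FPKM in proximal fibroblasts, lower in the distal library at E13.5 and higher at E17.5. Over all genes the regional difference moved at least 2-fold between E13.5 and E17.5 towards distal for 987 (7.65%) and towards proximal for 582 (4.51%). The largest moves by the rule on named genes were all of small RNAs (*Mir8100*, *Mir199a-2*, *Mir3063*, *Snord104* and *Mir709* towards distal, *Snord7*, *Snord82*, *Mir432*, *Snora78* and *Snora64* towards proximal). With 1 library a region and day, such a stage-bound difference had no replicate check.

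**Figure D4:**
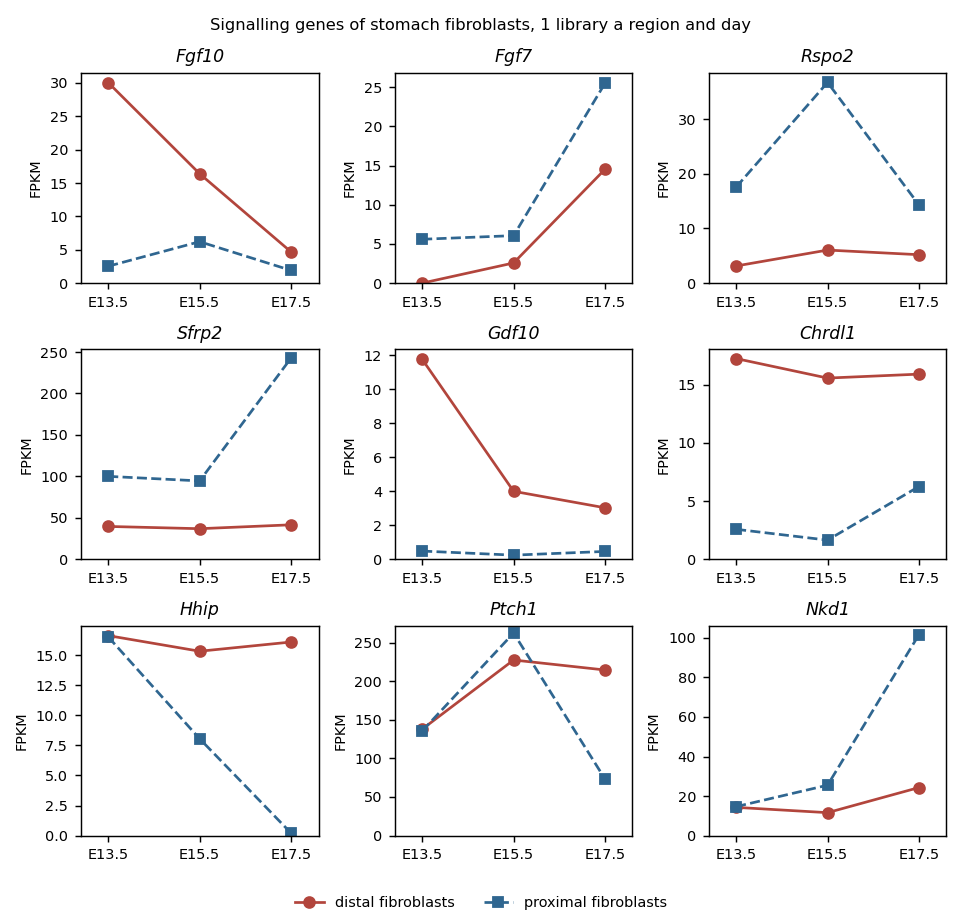
FPKM (vertical axis, linear, own scale for each gene) of 9 signalling genes by embryonic day (horizontal axis) in distal fibroblasts (circles, solid line) and proximal fibroblasts (squares, dashed line), 1 library a point. *Fgf10*, *Gdf10* and *Chrdl1* are higher in distal and *Fgf7*, *Rspo2* and *Sfrp2* in proximal libraries on each day. The regions lie close together for *Hhip*, *Ptch1* and *Nkd1* at E13.5 and apart at E17.5. For *Nkd1* and *Hhip* they already differ at E15.5 (*Hhip* 15.3 FPKM in distal and 8.05 FPKM in proximal fibroblasts). At E17.5 *Hhip* stood at 16.1 FPKM in distal and 0.208 FPKM in proximal fibroblasts.

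Matrix genes and markers of other cell types were counted in the same way. Of 38 tested collagen chains 0 were above and 1 below without overlap, near the shares over all genes (2.75% and 2.5%), and their median was −0.21. *Col1a1* had 785, 2364 and 5859 FPKM in distal and 816, 3558 and 8412 FPKM in proximal fibroblasts, highest at E17.5 in both regions. The 8 small leucine-rich proteoglycans tested had a median of −0.80, and *Dcn*, decorin, stood at 218, 587 and 1086 FPKM in distal and 441, 1098 and 1538 FPKM in proximal fibroblasts. *Lum*, lumican, stood at 56.2, 215 and 259 FPKM in distal and 171, 367 and 324 FPKM in proximal fibroblasts. On every day both were lower in distal fibroblasts (−0.81, SE 0.12, shared-spread adjusted p = 0.181 and −0.89, SE 0.25, shared-spread adjusted p = 0.0566). Smooth muscle markers had a median of −0.43, and *Acta2*, smooth muscle actin, had 454, 269 and 388 FPKM in distal and 602, 568 and 684 FPKM in proximal fibroblasts. Its groups did not overlap (−0.76, SE 0.14, shared-spread adjusted p = 0.208). Pericyte markers had a median of 0.58. *Kcnj8*, a potassium channel subunit, had 97.3, 56.8 and 23.8 FPKM in distal and 25.7, 12.1 and 11.3 FPKM in proximal fibroblasts. Its partner *Abcc9* had 49.8, 68.7 and 18.3 FPKM in distal and 16.6, 13.2 and 9.58 FPKM in proximal fibroblasts, and *Rgs5*, a regulator of G-protein signalling, had 15.6, 67.1 and 38.9 FPKM in distal and 9.88, 11.1 and 14.6 FPKM in proximal fibroblasts. They were higher in distal fibroblasts on every day, at 1.67 (SE 0.24, shared-spread adjusted p = 0.00411), 1.57 (SE 0.29, adjusted p = 0.0108) and 1.49 (SE 0.37, adjusted p = 0.0408). The 8 pericyte markers summed to 267, 329 and 173 FPKM in distal and 131, 126 and 116 FPKM in proximal fibroblasts, and their part in the other differences was not tested. *Gdnf*, the attractant of enteric neuron precursors, had 20.9, 5.19 and 5.06 FPKM in distal and 5.72, 2.32 and 1.56 FPKM in proximal fibroblasts, and *Slit2*, a guidance ligand, 14.8, 9.76 and 35.4 FPKM in distal and 106, 35.1 and 65.7 FPKM in proximal fibroblasts. The distal side was higher for *Gdnf* and lower for *Slit2* on every day (1.28, SE 0.20, shared-spread adjusted p = 0.00893 and −1.79, SE 0.37, shared-spread adjusted p = 0.0275). Cell cycle genes (35 tested) had medians of −0.07, −0.052 and 0.90 at the 3 days. *Mki67*, a gene of cycling cells, had 56.4, 89.3 and 56.9 FPKM in distal and 53.4, 84.7 and 28.8 FPKM in proximal fibroblasts, with the proximal library of E17.5 lowest. Stress response genes (27 tested) had medians of −0.33, −0.55 and 0.26, and the part of cell cycle and stress in the differences of E17.5 was not tested. Of 18 tested genes of the retinoic acid pathway, 0 were above and 0 below without overlap, near the shares over all genes (2.75% and 2.5%). Their median was −0.078.

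The epithelium of E13.5 served to ask whether a regional difference was particular to the fibroblasts. *Gata4*hi cells mark distal and *Sox2*hi cells proximal epithelium by reporters and not by a cut, so the contrasts are alike only in part. The days differ as well: the fibroblast difference is the mean of E13.5, E15.5 and E17.5, and the epithelial one is of E13.5 alone. The difference between the contrasts was called for 2027 of 13666 genes (14.8%), with the fibroblast difference above the epithelial one for 649 and below for 1378. After rescaling to TPM these counts were 1061 and 848, so that split depends on the scale. *Six2* averaged 0.159 ± 0.0669 FPKM in *Gata4*hi and 0.0663 ± 0.0655 FPKM in *Sox2*hi cells (SD, n = 3 libraries each). *Hoxa7*, *Meox2*, *Rspo2* and *Nkx3-2* were likewise below 1 FPKM in both epithelia. For such genes, chosen for their difference in fibroblasts, a contrast with the epithelium only restates that difference.

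The epithelial contrast itself, *Gata4*hi minus *Sox2*hi, was called upward for 1964 genes (14.4%) and downward for 904 (6.61%), and 8 of the 2-fold genes were among those called in the direction they had in fibroblasts. *Isl1* averaged 15.3 ± 4.14 FPKM in *Gata4*hi and 0.229 ± 0.117 FPKM in *Sox2*hi cells (SD, n = 3 each). *Anxa1* averaged 68.0 ± 6.93 FPKM in *Gata4*hi and 548 ± 50.3 FPKM in *Sox2*hi cells. The epithelial differences were 3.70 and −2.99, and the fibroblast means of the 3 days differed from them by −0.26 (SE 0.37, adjusted p = 0.711) and 0.20 (SE 0.22, adjusted p = 0.634, limma). On E13.5 alone the fibroblast differences were 4.28 for *Isl1* and −3.03 for *Anxa1*. The other 6 were *Chrdl1*, *Tspan12*, *Tgfb3* and *Hs3st3b1* on the distal side and *Hoxc6* and *Fmo1* on the proximal side. In the proximal library of E17.5, where *Anxa1* was highest, the epithelial markers, the reporter *EGFP* among them, summed to 6.29 FPKM. *Cdh1* stood at 0.265 FPKM in the distal and 1.25 FPKM in the proximal library of that day. Whether epithelial cells had a part in the *Anxa1* difference was not tested.

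**Figure D5:**
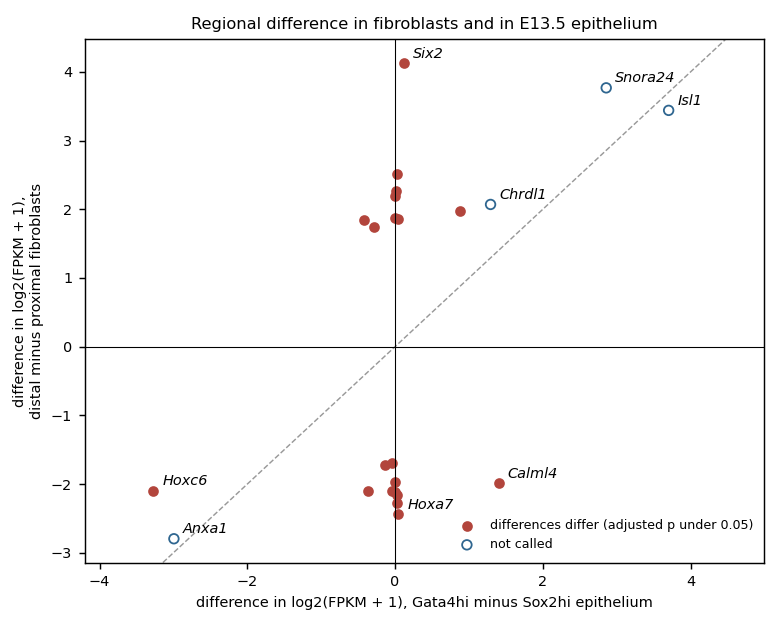
Difference in log2(FPKM + 1) of the 24 named genes, distal minus proximal fibroblasts as the mean of the 3 days (vertical axis) against *Gata4*hi minus *Sox2*hi epithelium of E13.5 (horizontal axis). Filled points are genes whose differences differ at an adjusted p under 0.05, open points are the others, and the dashed line marks equal differences. *Isl1* and *Anxa1* lie near the line, while *Six2* and *Hoxa7* lie near 0 on the epithelial axis.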

How the data were processed

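The 6 fibroblast and 8 E13.5 epithelial libraries were analysed from a deposited matrix of FPKM. Per the labels and the methods, the authors made it from 75-base single reads of a stranded polyA kit, using cutadapt (version 1.16), HISAT2 (version 2.1.0) and Cufflinks (version 2.2.1) with the mm10 build. Whether reads were counted by strand is not given in the sources used here. Of 53773 entries, 1 was empty and 61 repeated an identifier, and 27 symbols turned into dates were restored from GENCODE M21, which leaves 53711 genes. Every column was mapped to a sample. Absolute depth is unknown. Relative depth rests on low values, of which 31.2% to 33.7% stood in a whole-read ratio to the distal library of E13.5 and 0.788% to 1.71% did when that ratio was shifted.

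limma 3.58.1 in R 4.3.3 was run on log2(FPKM + 1) with day and region as terms. Variances were moderated with a trend (prior df 2.69, residual df 2), p-values were adjusted by Benjamini and Hochberg, and the script was tested on simulated data. The study's methods name no test across genes for these libraries. The shared-spread model had 7 residual degrees of freedom. Named are the region markers, the 12 largest each way (taken from the 2-fold genes, since 0 passed, and passing over predicted and unnamed transcripts), up to 4 of each gene list, all tested FGF ligands and the 5 each way whose difference moved most by E17.5. Named beyond this rule, after their values were seen, were *Barx1*, *Nkx2-5*, *Twist1*, *Twist2*, *Bmper*, *Ptch1*, *Gli1*, *Nkd1*, *Axin2*, *Sp5*, *Id1*, *Mki67*, *Col1a1* and the Hox genes other than *Hoxa4*, *Hoxa7*, *Hoxb8* and *Hoxc6*. Members and lists were chosen with earlier results of these data known. Python 3.11.15, pandas 2.3.3, numpy 2.4.6, data.table (version 1.17.8) and matplotlib 3.10.9 were used. Promoters are from RefSeq (GRCm38.p6). Some genes that are part of the counts are not reported here by name.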

Additional observations from a re-analysis of the deposited data

Results flagged for a closer look

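The regional difference of the fibroblasts, as the mean of the 3 days, was set against that of the E13.5 epithelium for the 24 named genes. These were chosen for their difference in fibroblasts, so the number of them that differ is fixed by the choice and supports nothing, and for genes near 0 in both epithelia the value restates the fibroblast difference. The values of the 20 genes past limma's threshold are given as a description. On the log2 scale, fibroblast minus epithelial difference, it was 4.01 for *Six2*, 2.50 for *Nkx3-2*, 2.26 for *Moxd1*, 2.25 for *Colec10*, 2.19 for *Gdf10*, 2.03 for *Hoxa4*, 1.87 for *Grem1*, 1.82 for *Uph*, 1.18 for *Hoxc6* and 1.10 for *Tspan12*. It was −3.39 for *Calml4*, −2.49 for *Hoxa7*, −2.31 for *Prdm6*, −2.19 for *Eif4ebp3*, −2.11 for *Meox2*, −2.06 for *Hpse2*, −1.96 for *Rspo2*, −1.72 for *Cpz*, −1.64 for *Rspo1* and −1.59 for *Sfrp2*. *Hoxc6* stands among the positive values because its epithelial difference was the larger one in the same direction, and *Calml4* was higher in *Gata4*hi epithelium but lower in distal fibroblasts.

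The regional difference of 3 small RNAs changed sign between E13.5 and E17.5. The change, E17.5 minus E13.5, was 8.11 for *Mir8100*, −7.11 for *Snora64* and −12.4 for *Snord7* on the log2 scale. It was not tested, since each day has 1 library a region.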

How the results depend on the processing

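The count of 0 called genes each way held with another pseudocount (0.1 FPKM), with no filter or a minimum of 5 FPKM, after rescaling to TPM or quantile normalization, without a variance trend, for protein-coding genes and long RNAs only, and without the replicate block for day (0 and 0). It also held without each day in turn (0 to 0). With the spread shared with the epithelium, 108 genes were higher in distal and 82 in proximal fibroblasts. In that model, alternatives chosen after seeing the data gave 122 and 60 (TPM), 104 and 80 (quantile normalization), 69 and 40 (pseudocount 0.1), and without 1 day 29 to 108 and 19 to 109 (85 and 67 without E13.5, the lowest without E15.5). The 2-fold genes numbered 63 and 57 with a pseudocount of 0.1 FPKM and 43 towards distal after TPM rescaling, which kept 25 of the 25. With 2 days instead of 3 they numbered 63 to 98 and 57 to 94, as fewer days have to pass. Against the epithelium, TPM gave 1061 and 848 genes. Leaving out 1 day, the difference changed sign for *Fgf2* (−0.25 to 0.089), *Mir8100* (−2.53 to 1.52), *Mir199a-2* (−2.96 to 0.059), *Snord7* (−0.31 to 5.91), *Snord82* (−3.79 to 3.34), *Mir432* (−3.78 to 0.041), *Snora64* (−0.79 to 2.76), *Hoxb4* (−0.027 to 0.12), *Hoxb5* (−0.22 to 0.12), *Id1* (−0.50 to 1.18) and *Ptch1* (−0.091 to 0.78), given as lowest and highest. *Snord7* was −0.31 without E13.5 and −0.096 without E15.5, *Hoxb5* 0.12 and 0.076, and *Hoxb5* was 0.037 after TPM rescaling. The cause was not tested. Depth is known only in relative terms, so no interval from counts can be given.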
